A study of Phaseolus coccineus with 4 samples.

Results

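The 965 broad regions described here come from a chromatin immunoprecipitation (ChIP-seq) of the WOX9-like protein of scarlet runner bean (Phaseolus coccineus). Each is a stretch of at least 1500 bp made of peaks of both replicates, not necessarily enriched over its whole length in each. A peak of 1500 bp or more was present in both replicates in 232 of them. All peaks of both lists that overlapped by at least 1 bp were joined, and a joined region was kept when it held a peak of each replicate and was 1500 bp or more from end to end. These 965 regions were 4.66% (95% Wilson interval 4.38 to 4.95) of the 20728 regions found in both replicates. Merging gave 35556 regions in all, of which the others held peaks of 1 replicate. The other 19763 shared regions, all under 1500 bp, are the set that they are compared with. The members were thus selected on measured width. Fold, q-value and number of peaks come from the same ChIP signal, so every difference in them is given as a description and none was tested.

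Both ChIP samples came from seeds of the cultivar Hammond's Dwarf Red Flower, harvested 6 days after hand pollination at a length of 1.6 to 2.5 mm, when embryos were globular. Only the micropylar end of the seed, where the embryo sits, was taken. It was crosslinked in 1% formaldehyde, and the antibody had been raised against a peptide of the WOX9-like protein. The 2 input samples of the series have no values of their own here; the fold of each peak is already relative to a control library. All groups share the cultivar, tissue and stage, and these samples include no line without the protein. The labels number the replicates without saying that they came from separate plants, so the spread between them may be technical. With 2 samples of 1 kind, no test between groups was possible, and intervals on shares cover counting error only, since neighbouring regions are not independent.

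WOX proteins are plant homeodomain transcription factors related to WUSCHEL, the regulator of the shoot stem cell niche in Arabidopsis. WOX9 of Arabidopsis acts in the early embryo and its basal lineage, which forms the suspensor, and scarlet runner bean is known for an exceptionally large suspensor. Homeodomain proteins bind short DNA motifs, and such motifs may occur in groups. A peak caller reports 1 peak and 1 summit for an unbroken stretch of ChIP signal over the control, so a wide peak can hold a single long site or several neighbouring ones. Genes at the regions are not named and no sequences are shown, since the genome and annotation of the files' build were not used here. Chromosomes and positions are those of the deposited lists, counted from 1, whose peak names carry a tag taken to mean a common bean (Phaseolus vulgaris) assembly.

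The broad regions had a median width of 1890 bp, with quartiles of 1649 and 2361 bp and a highest value of 6073 bp, against a median of 527 bp, with quartiles of 400 and 726 bp, in the shared regions under 1500 bp. They made up 2.07 Mb of the 13.8 Mb of shared regions, or 14.9% of the shared length. A width of 2000 bp was reached by 409 of them, 3000 bp by 100 and 4000 bp by 33, and the 8 widest had at least 5089 bp. The number of regions fell smoothly through the threshold: 169 regions were 1500 to under 1600 bp wide and 222 were 1400 to under 1500 bp wide. Just inside it, at 1500 bp, lay regions on chromosome 1 from 46762374 to 46763873, with folds of 7.12 in replicate 1 and 11.2 in replicate 2, and on chromosome 2 from 1679103 to 1680602, with 10.6 and 8.64, and from 39190596 to 39192095, with 13.3 and 13.9. Just outside it, at 1499 bp, lay regions on chromosome 1 from 40572948 to 40574446, with folds of 4.67 in replicate 1 and 2.71 in replicate 2, on chromosome 2 from 44063304 to 44064802, with 6.09 and 5.15, and on chromosome 7 from 5403728 to 5405226, with 8.44 and 7.24. The threshold thus separates no distinct class of widths.

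Most broad regions were a single peak in replicate 1 and several peaks in replicate 2. This arrangement held for 554 of the 965 broad regions (57.4%, interval 54.3 to 60.5), against 768 of the 19763 regions under 1500 bp (3.89%, interval 3.63 to 4.16). A further 345 broad regions (35.8%, interval 32.8 to 38.8) had 1 peak in each replicate, against 95.5% of the regions under 1500 bp. A narrow region has less room for several peaks, so these contrasts are partly set by the width rule. In 26 broad regions replicate 1 had several peaks and replicate 2 had 1, and in 40 both had several. Which arrangement led depended on the width asked for: from 1000 bp, 59.0% of the regions had 1 peak in each replicate and 38.4% several replicate 2 peaks, against 35.8% and 61.6% from 1500 bp. Of the 232 regions with a peak of 1500 bp or more in both lists, 64.7% had 1 peak in each replicate. With an overlap of 50% of both peaks asked for, each region has 1 peak in each by construction. Replicate 1 never had more than 3 peaks in a broad region. Replicate 2 had 2 peaks in 424 regions, 3 in 131, 4 in 30, 5 in 7, 6 in 1 and 7 in 1.

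**Figure D1:**
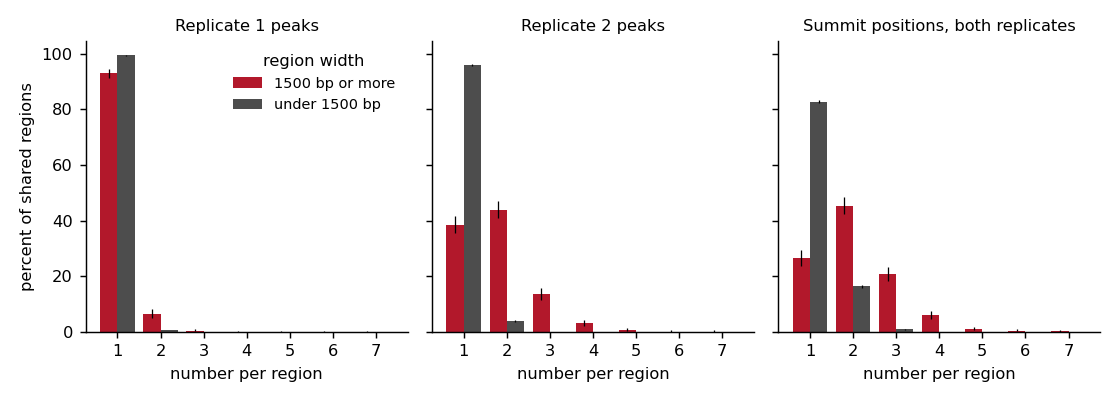
Percent of shared regions (vertical axis) by the number of replicate 1 peaks, replicate 2 peaks and distinct summit positions they held (horizontal axes), for regions of 1500 bp or more (red, n = 965) and under 1500 bp (grey, n = 19763); bars carry 95% Wilson intervals. In replicate 1 a single peak is the rule in both sets, whereas in replicate 2 the broad regions most often hold 2 peaks (43.9%).

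The width of these regions rested on replicate 1 in most cases. A single replicate 1 peak of at least 1500 bp was present in 889 broad regions (92.1%), and a replicate 2 peak of that width in 249 (25.8%). Both replicates had one in 232 regions, replicate 1 alone in 657 and replicate 2 alone in 17. The remaining 59 reached 1500 bp only through joined peaks, none of which was that wide. Taken alone, the replicate 1 list had 895 peaks of 1500 bp or more and the replicate 2 list 253. The median broad region was covered completely by replicate 1 peaks and over 75.2% of its length by replicate 2 peaks, against 100% and 74.1% in regions under 1500 bp. The number of fragments at summits differed in the same direction, while total depth is unknown. The leading summit, the one of highest fold in a replicate, had a median of 187 fragments in replicate 1 and 92 in replicate 2. In the regions under 1500 bp these medians were 104 and 45. The control also differed by name, noAb for replicate 1 and input for replicate 2. Summit fragments and control differed together, so their parts in the breaks between replicate 2 peaks cannot be told apart, and neither was tested.

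Where 1 replicate 1 peak spanned several replicate 2 peaks, the breaks between them were short. The stretches without a replicate 2 peak summed to a median of 275.5 bp per region (quartiles 170 and 467 bp), and a further 235 bp in the median lay outside the outermost replicate 2 peaks. The single replicate 1 summit lay within 100 bp of the leading replicate 2 summit in 373 of the 554 regions (67.3%, interval 63.3 to 71.1). In 76 (13.7%) it lay instead at a lower replicate 2 summit, and in 105 (19.0%) at none of them. The summit of the wide replicate 1 peak was thus also a replicate 2 summit in all but these 105.

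Each listed peak has 1 summit, so distances between summits of the same replicate are those between separately called peaks. The 815 distances between neighbouring replicate 2 summits had a median of 822 bp, with quartiles of 620.5 and 1140.5 bp, against 526 bp for the 801 such distances in regions under 1500 bp, where the region's width caps the spacing. In replicate 1 the 69 distances had a median of 1083 bp, against 554 bp for 125 distances. No pair of neighbouring summits in a broad region was closer than 446 bp in replicate 1 or 324 bp in replicate 2. The shortest peaks of the lists were 198 bp in replicate 1 and 185 bp in replicate 2. Closer summits within 1 peak are not listed, so the lowest distances are partly set by peak calling. The second summit of a region had a median of 59.5% of the leading fold in replicate 2 (594 regions) and 55.3% in replicate 1 (66 regions).

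Counted over both replicates, with each summit joined to the next one when they were at most 100 bp apart, 709 of the 965 broad regions held several summit positions (73.5%, interval 70.6 to 76.2), against 17.3% (interval 16.7 to 17.8) of the regions under 1500 bp. This contrast too is partly set by the width rule, since a narrow region has less room for several positions. There were 438 broad regions with 2 positions, 199 with 3 and 72 with 4 or more, where the count includes positions that only 1 replicate had. The number went up with width. The mean was 1.86 positions in regions of 1500 to under 2000 bp (n = 556), 2.25 at 2000 to under 3000 bp (n = 309), 2.76 at 3000 to under 4000 bp (n = 67) and 3.76 from 4000 bp (n = 33). Width per position changed less, at 917, 1057, 1230 and 1250 bp in these 4 classes.

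A minority of broad regions had a single summit position in spite of their width. These were 256 regions (26.5%, interval 23.8 to 29.4), with a median width of 1742 bp and a highest one of 4100 bp. That widest one lay on chromosome 9 from 523480 to 527579. Its only replicate 1 peak had a fold of 5.51 and its only replicate 2 peak 6.54, and the summits were 21 bp apart, 318 and 297 bp from the near edge of the region. The next, 3804 bp on chromosome 7 from 22166504 to 22170307, had folds of 16.0 in replicate 1 and 17.1 in replicate 2, with summits 348 and 301 bp from the edge. Each of these summits thus stood at one end of a region whose other end was over 3 kb away. A region of 4290 bp on chromosome 9, from 8247051 to 8251340, also had 1 peak in each replicate, but its summits, of fold 8.50 in replicate 1 and 5.65 in replicate 2, stood 3836 bp apart at opposite ends. The median lower-of-2 fold, the lower of the folds of a region's leading peaks, was 9.84 in regions with 1 position, 8.16 with 2, 7.48 with 3 and 6.51 with 4 or more.

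The leading summit was spread over the width of broad regions and was not gathered at their middle. It was a median of 534 bp from the nearer edge and 1366 bp from the farther edge in replicate 1, and 538 and 1366 bp in replicate 2, against 197 and 311 bp, and 193 and 323 bp, in regions under 1500 bp. As a share of the region's width, the distance to the nearer edge was 27.3% in both replicates, against 41.2% in replicate 1 and 39.0% in replicate 2 for the narrower regions, where 50% is the middle. The leading summit lay within 20% of the width from an edge in 311 broad regions in replicate 1 (32.2%, interval 29.4 to 35.2) and 301 in replicate 2 (31.2%, interval 28.3 to 34.2), against 2.58% and 5.31% of the regions under 1500 bp. An equal distance in bp from an edge is a larger share of a narrow region's width, so this contrast too is partly set by the width rule. The shift away from the middle was gradual in width and did not start at 1500 bp. In replicate 1 the median was 43.9% of the width in regions under 500 bp, 38.3% from 500 to under 1000 bp and 31.8% from 1000 to under 1500 bp, and among the broad regions 29.3% from 1500 to under 2000 bp, 25.8% from 2000 to under 3000 bp and 19.4% from 3000 bp.

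**Figure D2:**
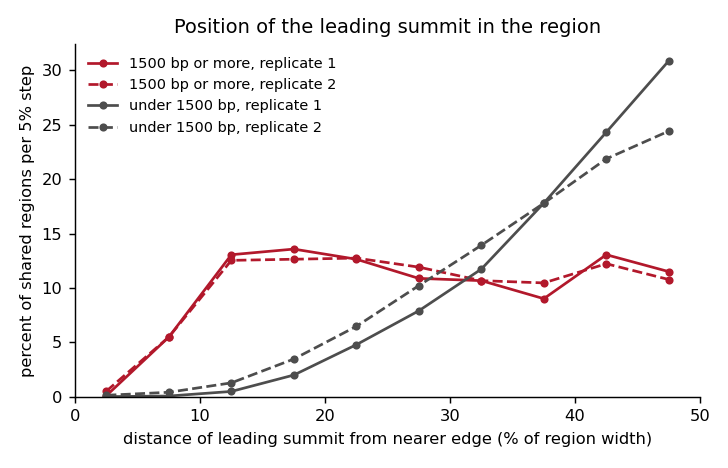
Percent of shared regions (vertical axis) in steps of 5% of the distance from the leading summit to the nearer edge of the region, as a percent of its width (horizontal axis; 50% is the middle), for regions of 1500 bp or more (red) and under 1500 bp (grey), with replicate 1 as full and replicate 2 as dashed lines. The grey lines climb to the middle, where 30.9% of replicate 1 and 24.4% of replicate 2 summits lie in the last step, while the red lines stay between 9.02% and 13.6% in every step from 10% on.

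Both replicates placed the leading summit at the same position in most broad regions. The median distance between the leading summits was 46 bp, against 36 bp in regions under 1500 bp, and 673 of 965 (69.7%, interval 66.8 to 72.6) lay within 100 bp, against 85.8% (interval 85.3 to 86.3). The upper tail was longer: 155 broad regions (16.1%, interval 13.9 to 18.5) had leading summits over 500 bp apart, against 169 of 19763 (0.855%, interval 0.736 to 0.993). The region's width caps this distance, and 8973 of the 19763 were under 500 bp wide, with a highest distance of 327 bp. These shares therefore do not compare the agreement of the replicates at equal width. In 74 of the 155, the leading replicate 1 summit was within 100 bp of a replicate 2 summit, but not of the leading one. Of the 155, 109 had several replicate 2 peaks, with the second fold at a median of 80.2% of the leading one, against 59.5% in broad regions at large. The 155 were picked by their leading summits and are part of the broad set, so nothing is read from this difference. Fold of the leading peaks correlated between replicates across the 965 regions with a Spearman rho of 0.73, and across the 19763 narrower regions with 0.69. Regions of 1 library pair share its depth and control, so these are descriptions. The log2 ratio of replicate 2 to replicate 1 had a median of −0.01 and an SD of 0.47 in broad regions, against −0.06 and 0.54.

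The widest regions show these arrangements one by one. The widest, 6073 bp on chromosome 4 from 46841894 to 46847966, was 1 replicate 1 peak over 7 replicate 2 peaks, the highest number of any broad region. Its folds were 5.20 in replicate 1 and 5.12 in replicate 2, yet the leading summits were 5112 bp apart, near opposite ends. Replicate 2 also had a summit of fold 4.69 at 5710 bp from the region's start, beside the replicate 1 summit at 5628 bp, and its 7 folds ran from 1.94 to 5.12. Replicate 1 has only 1 summit listed here, so its signal at the other replicate 2 summits is not known.

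On chromosome 8 a region of 5846 bp from 57289486 to 57295331 had folds of 10.2 in replicate 1 and 8.13 in replicate 2. Its leading summits were 599 bp apart in the middle of the region, and replicate 2 split it into peaks of 3091 and 2239 bp. A region of 5836 bp on chromosome 2, from 1228145 to 1233980, had the opposite shape. Its leading summits, of fold 13.5 and 10.5, lay 240 and 286 bp from one end and 46 bp apart, and the other 2 replicate 2 peaks had folds of 5.45 and 5.42.

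The region on chromosome 7 from 5543273 to 5548905 was both wide and strong. It spanned 5633 bp, with folds of 19.1 in replicate 1 (exact Poisson interval 17.2 to 21.2, 345 fragments) and 26.1 in replicate 2 (interval 22.9 to 29.6, 237 fragments), and the leading summits were 1 bp apart. Its 4 replicate 2 peaks had folds of 26.1, 8.02, 6.41 and 14.8 in order along the chromosome, so that its 2 strongest summits stood 531 and 4831 bp from the region's start. The region was the only one among both the 10 widest and the 10 strongest broad regions. Another broad region lay 4759 bp away.

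On chromosome 5 a region of 5603 bp from 37473360 to 37478962 held the widest replicate 2 peak among the 10, of 4091 bp. Its leading summits, with folds of 12.8 in replicate 1 and 16.1 in replicate 2, fell on the same base, close to the middle of the region. The other 5 of the 10 widest regions lay on chromosomes 6, 7, 8 and 11, between 4924 and 5422 bp wide. The leading summits were 10 to 44 bp apart in 4 of them and 1285 bp apart in the region on chromosome 6 from 12872905 to 12877876, where 5 replicate 2 peaks covered 44.7% of the length. One of the 5, on chromosome 7 from 3127768 to 3132856, differed by more than ChIP counting error, with folds of 6.53 in replicate 1 (interval 5.68 to 7.47) and 13.7 in replicate 2 (interval 11.4 to 16.4). Its control backgrounds, which are scaled values and not fragment counts, were 31.0 in replicate 1 and 7.74 in replicate 2. Their medians over all broad regions were 18.6 and 9.46. The part of the backgrounds in this difference was not tested.

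**Figure D3:**
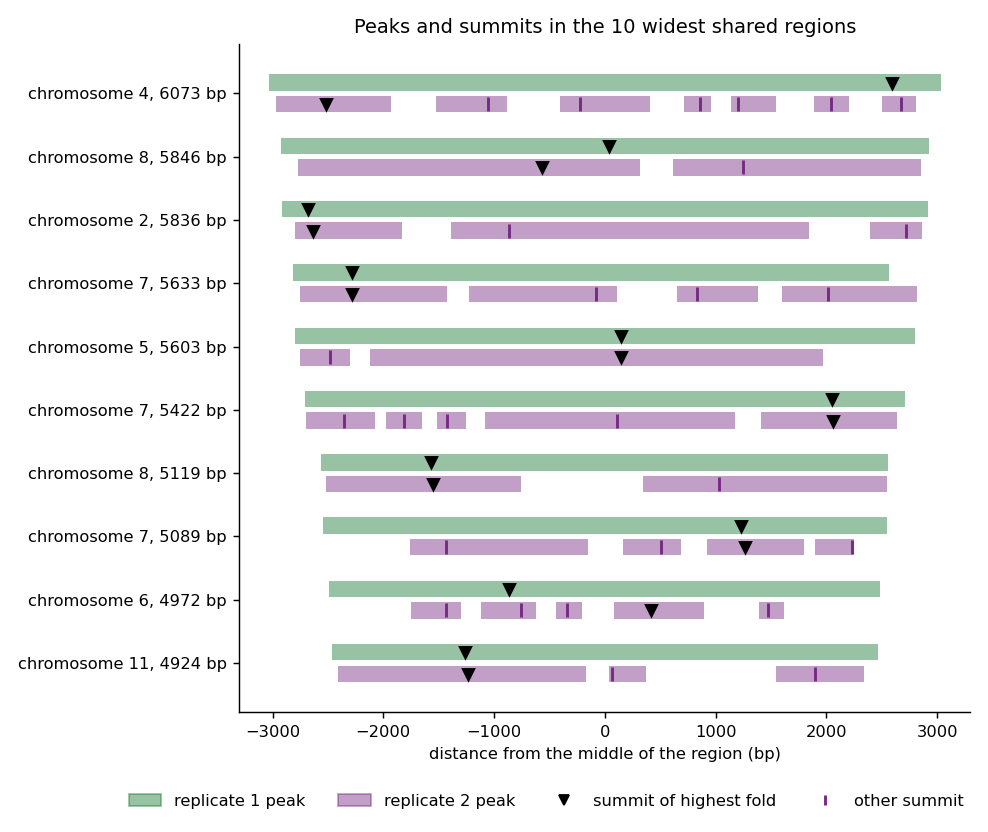
Peaks of replicate 1 (green bars) and replicate 2 (purple bars) in the 10 widest shared regions, by distance from the middle of the region in bp (horizontal axis); a triangle marks the summit of highest fold in each replicate and a tick any other summit. Each region is 1 green bar over 2 to 7 purple ones, and in 7 of the 10 the triangles of both replicates lie within 46 bp.

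Counting peaks of both lists together, 1 broad region held 8, 3 held 7 and 9 held 6. The one with 8 is the widest region, on chromosome 4, and the widest of the 9 with 6 is the region on chromosome 7 from 10105662 to 10111083. Of those with 7, a region of 4794 bp on chromosome 3, from 46499587 to 46504380, was split in both lists, into 3 replicate 1 peaks and 4 replicate 2 peaks. Its strongest summits, of fold 14.1 and 13.6, were 106 bp apart, and the second ones, of fold 8.40 and 8.89, lay near the other end at 519 and 523 bp from the region's start. The other regions with 7, on chromosome 11 from 44481262 to 44485882 (5 replicate 2 peaks) and chromosome 6 from 24797208 to 24801284 (6 replicate 2 peaks), had low folds, of 5.75 and 5.58 in replicate 1 and 5.52 and 6.35 in replicate 2. A dense run of weak summits and a pair of strong ones thus both gave regions over 4 kb.

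Broad regions were stronger at their summits than the narrower ones, and the ranges overlapped almost completely. The leading fold had a median of 9.53 in replicate 1 (lowest 2.80, highest 24.9) and 9.18 in replicate 2 (lowest 2.16, highest 32.4), against 5.69 (1.68 to 30.2) and 5.19 (1.68 to 36.2) in regions under 1500 bp. Among shared regions, the highest fold of each replicate was therefore in a narrow one. In both replicates the fold was 10 or more in 322 of the 965 broad regions (33.4%), where the background over all shared regions was 8.78%. By replicate 1, whatever replicate 2 had, 433 did, against a background of 14.9%, and by replicate 2 422, against 15.1%. Width was chosen from the same signal, so nothing is read from these shares. A fold under 5 in both replicates was seen in 49 broad regions (5.08%), against 31.0% of the narrower ones. Control backgrounds at the leading summits were alike, with medians of 18.6 in replicate 1 and 9.46 in replicate 2 for broad regions, against 17.4 and 8.59.

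Seen from the other side, the share of broad regions was higher in each higher class of lower-of-2 fold. Below a fold of 3, 13 of 3076 shared regions were broad (0.423%, interval 0.247 to 0.722). From 5 to 6, 91 of 2582 were (3.52%, interval 2.88 to 4.31), and from 10 to 12, 166 of 1024 (16.2%, interval 14.1 to 18.6). From 15 to 20 the share was 21.9% (37 of 169, interval 16.3 to 28.7). Most strong regions were thus narrow in every class. Among the broad regions, width and fold had a Spearman rho of 0.09 in replicate 1 and 0.11 in replicate 2. Among the regions under 1500 bp, rho was 0.48 and 0.38. Both sets were cut on width, and such a cut can lower rho by itself. These values therefore do not show that the relation changes at 1500 bp.

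**Figure D4:**
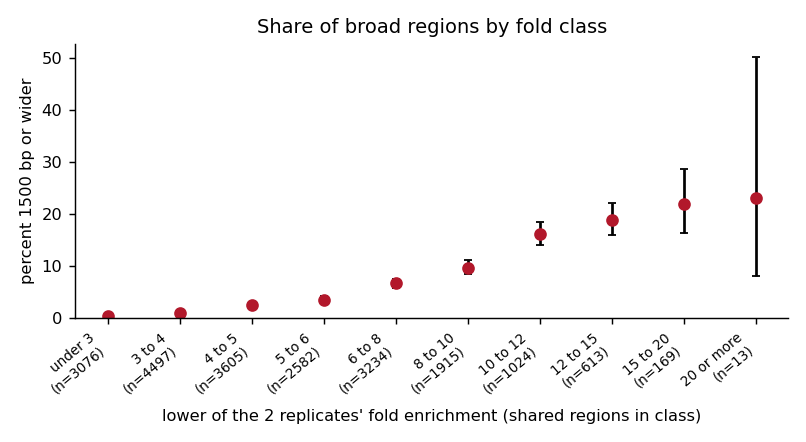
Percent of shared regions that were 1500 bp or wider (vertical axis) in classes of the lower of the 2 replicates' folds (horizontal axis, with the number of shared regions in each class); lines are 95% Wilson intervals. The share goes from 0.423% below a fold of 3 to 21.9% between 15 and 20, and the last class holds 13 regions.

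The strongest broad region by lower-of-2 fold was 1651 bp on chromosome 7, from 24705933 to 24707583, with folds of 24.9 in replicate 1 and 24.6 in replicate 2 and 1 peak in each. Its leading summits, with 324 and 193 fragments, lay 7 bp apart and 275 and 282 bp from one edge, which left a flank of 1375 bp in replicate 1 and 1368 bp in replicate 2 on the other side. The other 9 of the 10 strongest had several replicate 2 peaks. The second replicate 2 summit reached a fold of 8.12 on chromosome 6 (18300873 to 18302459, leading folds 23.2 in replicate 1 and 25.8 in replicate 2) and 5.17 on chromosome 8 (1614276 to 1616593, 21.5 and 32.4). It reached 9.97 on chromosome 5 (37555795 to 37557603, 19.8 and 26.7), and 13.0 in a 4568 bp region on chromosome 8 (53179154 to 53183721, 18.4 and 19.1). On chromosome 10 (43495694 to 43497243) it was 3.55, with leading folds of 19.5 in replicate 1 and 18.9 in replicate 2. On chromosome 1 (37762723 to 37764612) it was 3.86, and on chromosome 4 (13550080 to 13551674) 3.52. On chromosome 3 (45717755 to 45719819) it was 7.11. A strong summit with a much weaker neighbour was thus the form of most of these 10, and their leading summits were 1 to 54 bp apart.

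The weakest broad region by the same measure lay on chromosome 2 from 9379847 to 9381436, with folds of 2.80 in replicate 1 and 2.16 in replicate 2. Its single replicate 2 peak was 194 bp wide and covered 12.2% of the 1590 bp, so that its width came from replicate 1. The next 2, on chromosome 3, had 254 and 836 bp of replicate 2 peak in regions of 1841 and 1818 bp. The 232 regions with a peak of 1500 bp or more in both lists hold no such case. Their median folds were 10.7 in replicate 1 and 11.4 in replicate 2.

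Broad regions occurred on all 11 chromosomes, and 11 of them lay on scaffolds. Chromosome 2 held the most, 142, and chromosome 10 the fewest, 32. Their share among the shared regions of a chromosome was lowest on chromosomes 10 (2.90%, interval 2.06 to 4.06) and 4 (2.92%, interval 2.08 to 4.07) and highest on chromosomes 7 (5.44%, interval 4.57 to 6.48) and 2 (5.35%, interval 4.56 to 6.28). The other 7 chromosomes lay between 4.26% and 5.08%. Chromosomes 4 and 10 also had few shared regions per Mb (23.6 and 24.9), but chromosome 11, with 24.3 per Mb, had a share of 4.37%. Across the 11 chromosomes the share and the density of shared regions had a Spearman rho of 0.62. Per Mb of chromosome there were 2.97 broad regions on chromosome 7, 2.96 on chromosome 9 and 2.86 on chromosome 2, against 0.687 on chromosome 4 and 0.723 on chromosome 10.

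**Figure D5:**
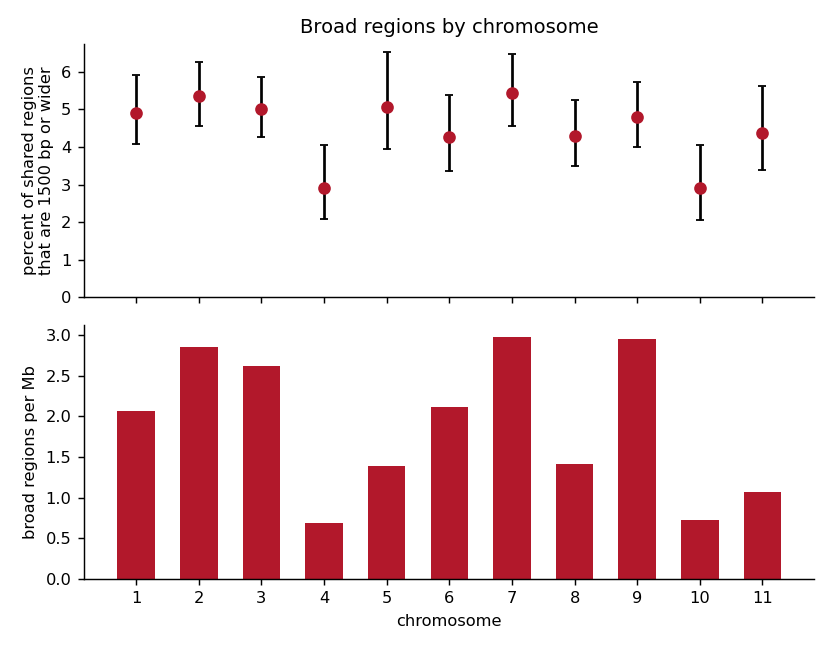
Percent of the shared regions of each chromosome that were 1500 bp or wider, with 95% Wilson intervals (upper panel), and broad regions per Mb of chromosome span to the last peak (lower panel), for the 11 chromosomes (horizontal axis). Chromosomes 4 and 10 are lowest in both panels, at 2.92% and 2.90% and at 0.687 and 0.723 per Mb.

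Along the chromosomes the broad regions were placed much like the others. Of the 954 on chromosomes, 654 (68.6%, interval 65.5 to 71.4) lay in the outer 25% of the span at either end, against 69.1% (interval 68.5 to 69.8) of the regions under 1500 bp. The outer share was higher for broad than for narrower regions on 4 of the 11 chromosomes, among them chromosome 8 (93.3% against 86.3%) and chromosome 6 (63.6% against 55.9%). It was lower on the others, among them chromosome 5 (68.4% against 74.9%) and chromosome 2 (60.6% against 62.6%). Broad and other shared regions per 1 Mb bin had a Spearman rho of 0.74 across 510 bins. Of these bins 196 held no broad region and 70 held 5 or more, which together had 458 of the 943 broad regions in whole bins. The fullest bin, on chromosome 8 from 57 to 58 Mb, held 12 among 118 shared regions (10.2%) and includes the second widest region. Next came chromosome 9 from 21 to 22 Mb with 11 of 94.

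Broad regions also tended to have neighbours. The nearest other shared region was a median of 957 bp away (quartiles 337 and 2954 bp), against 2070 bp (quartiles 628 and 6951 bp) for regions under 1500 bp. Another shared region lay within 1 kb of 492 broad regions (51.0%), against 35.1% of the narrower ones, and within 10 kb of 872 (90.4%), against 81.2%. Distances run from edge to edge, so a wide region reaches closer to its neighbours at an equal spacing of centres. Another broad region lay within 10 kb of 167 (17.3%, interval 15.0 to 19.8) and within 1 kb of 67. The median distance to the next broad region was 80602 bp (961 regions with another on the same chromosome or scaffold).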

How the data were processed

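Both WOX9-like peak lists were analysed. Per the submitters' processing notes, the tools were Bowtie 0.12.7, MACS2 and SAMtools 0.1.18; other settings and the build in words are not given in the sources used here. Each ChIP sample has a deposited list of its own. The deposited lists give each peak's fold enrichment over the control (a ratio), the −log10 of its p-value and q-value, a score of 10 times −log10 q, and its summit. Per the deposited peak names, the control was called noAb for replicate 1 and input for replicate 2, and whether these are the input samples was not settled.

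Peaks were merged with pandas 2.3.3 in Python 3.11.15 and checked with bedtools 2.31.1. No interval was listed more than once, so each peak has 1 summit. The leading peak is that of highest fold. Fragments at summits were solved from fold and p-value, on the assumption that MACS2 adds 1 to both pileups (within 0.002 in −log10 p for every leading peak of a shared region), with replicate 1 counts multiplied by 0.99444. Fold intervals are exact Poisson intervals of these counts and leave out the control's error. Total depth is unknown. Merging and counts were tested on simulated data. Regions named are the 10 widest, the 10 of highest lower-of-2 fold, the 5 with most peaks (ties by width) and the 3 on each side of 1500 bp; single-position, weakest and unpartnered ones were chosen after their values were seen. Members and rules were chosen with earlier results of these data known. Alternatives were other widths, overlap, q-value, gap, outer part and single replicates.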

Additional observations from a re-analysis of the deposited data

How the results depend on the processing

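Limits were 1.5 times for a count, the 95% interval for a share or distance and 1 SD between replicates for the fold, and 18 of 49 values under 10 alternative settings kept to them. The more common arrangement of peaks turned over from several replicate 2 peaks to 1 peak in each from 1000 bp, with 50% overlap and with a wide peak in both replicates. The number of regions was 2828 from 1000 bp, 409 from 2000 bp and 497 with overlap of at least 50% of both peaks. Without replicate 1 it was 253 and without replicate 2 it was 895. Across these single lists the share of broad peaks was 1.09% to 2.57%, the median fold 9.49 to 10.8 and the outer share 64.3% to 69.1%. The share of broad regions was 13.6% from 1000 bp, 1.97% from 2000 bp, 2.90% with 50% overlap and 5.42% with peaks up to 100 bp apart merged. The share with 1 peak in each replicate was 59.0% from 1000 bp, 23.2% from 2000 bp, 28.1% with gaps merged and 39.7% with −log10 q of at least 5, and that with several replicate 2 peaks 38.4%, 75.1%, 65.6% and 57.5%. Overlap of 50% gave 100% and 0% by its construction. The median lower-of-2 fold was 7.36 from 1000 bp, 8.54 from 2000 bp and 9.38 with 50% overlap. Outer parts of 10% held 30.4%. Chosen after seeing the data, a peak of at least 1500 bp in both replicates gave 64.7% with 1 peak each, a fold of 9.85, 37 bp between leading summits and an outer share of 64.1%. The leading summit by q-value left that distance at 43 bp. The causes were not tested. No paired analysis was possible because no group other than ChIP has values here.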

Other observations

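Of the 895 replicate 1 peaks of at least 1500 bp, 4 (0.447%, Wilson interval 0.174 to 1.14) lay in regions with no replicate 2 peak, against 13954 of the 34876 replicate 1 peaks of any width (interval 39.5% to 40.5%). Of the 253 replicate 2 peaks of at least 1500 bp, 0 lay in regions with no replicate 1 peak, against 874 of 23218 of any width (3.76%). A partner needs only 1 bp of overlap, so a wide peak has more room to meet one. The parts of width and fold in these differences were not tested. The 4 had folds of 2.44 to 4.14 over 58 to 77 fragments. The widest spanned 2387 bp of chromosome 8 (9762147 to 9764533). Its fold was 3.88, and 822 bp separated it from any replicate 2 peak. Of the others, 2 lay on chromosome 11, from 6351445 to 6353251 and from 6528084 to 6530454, and 1 on chromosome 1 from 37388361 to 37389877.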
